A study of Homo sapiens with 9 samples.

Results

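Glycolysis and the hypoxia response were followed here through 37 genes, chosen by function and matched by symbol to the gene identifiers of the count files. They are 37 of 61544 genes in each file, and all 37 were among the 18653 genes with enough reads to test. The set holds 17 glycolytic enzymes and lactate dehydrogenases, 3 transporters of glucose or lactate, 3 kinases that set the flow of carbon, and 14 further targets of the hypoxia-inducible factors, from mitophagy receptors to collagen-modifying enzymes. H1975 cells, a human lung adenocarcinoma line, first received si78, which silences the cell's own GRP78 through the 3′ untranslated region, and then a plasmid. GRP78 is the endoplasmic reticulum chaperone encoded by HSPA5. The plasmid was empty (Vector), expressed FLAG-tagged wild-type GRP78 (F-78(WT), here WT), or expressed the same protein with 3 lysines of its nuclear localization signal changed to alanine (F-78(NLS Mut), here NLS Mut). Each of the 3 groups had 3 libraries, si78 was given to all of them, and H1975 cells with their own GRP78 intact are not part of the comparison. The plasmids were transient, the groups come from a single cell line, and the labels name no low-oxygen treatment.

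Glycolysis splits glucose into pyruvate, and lactate dehydrogenase then turns pyruvate into lactate, which monocarboxylate carriers move across the membrane. Hypoxia-inducible factors (HIFs) are pairs of an oxygen-labile α subunit, HIF1A or EPAS1, with ARNT. In air, prolyl hydroxylases of the EGLN family mark the α subunit, VHL binds the mark and the subunit is degraded. When oxygen is low, the pair binds a short DNA core and raises glucose uptake, glycolysis, pH control, mitophagy, angiogenic signals and collagen cross-linking. Many tumour cells express glycolytic genes strongly even in air.

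The DNA core bound by HIFs is ACGTG or GCGTG. It was looked for on either strand in the 250 bases upstream of the transcription starts that RefSeq (GRCh38.p14) gives for 32 of the 37 genes. No window was at hand for SLC16A1, BNIP3L, NDRG1, VEGFA and HILPDA. At least 1 core stood in 60.7% of the 61 windows of these genes and in 43.2% of all 35116 windows. A gene can have several windows, and 81.2% of the 32 genes had a core in any window, against 47.4% of 27305 genes, tested or not. The 32 genes had 61 windows, with 7 each for HK1 and PFKM, and the 27305 genes had 35116. More windows per gene give more occasions for a match, so the shares by gene are not on an equal footing. The E-box CANNTG, a general site of helix-loop-helix factors, stood in 45.9% of their windows and in 61.8% of all windows, but in 65.6% of the genes and 66.7% of all genes when any window counts. CACGTG holds both motifs, and it stood in 13.1% of their windows and 6.3% of all, and in 25.0% of the genes against 7.7% of all genes. Below are upstream stretches of PGK1 and GAPDH, the 2 genes of the set called by the main edgeR fit, without block or GC offset. Stretches of BNIP3, PLOD2 and HK2, which have several cores and were not called by that fit, are also given. Some alternative fits called BNIP3 or PLOD2 higher. Each stretch is written 5′ to 3′ on the strand of its gene, with every core on either strand in capitals.
PGK1 (chrX:78104031-78104075, plus strand): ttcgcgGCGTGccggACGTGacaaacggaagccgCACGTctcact
GAPDH (chr12:6535177-6535194, plus strand): cggggtCACGTGtcgcag
BNIP3 (chr10:131982017-131982072, minus strand): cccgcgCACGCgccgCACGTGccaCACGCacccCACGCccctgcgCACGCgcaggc
PLOD2 (chr3:146161320-146161403, minus strand): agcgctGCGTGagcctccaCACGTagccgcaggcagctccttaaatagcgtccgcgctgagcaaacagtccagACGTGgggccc
HK2 (chr2:74834970-74835110, plus strand): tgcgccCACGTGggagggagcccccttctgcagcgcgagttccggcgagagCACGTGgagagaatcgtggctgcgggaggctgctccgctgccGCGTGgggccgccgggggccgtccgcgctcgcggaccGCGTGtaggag
The PGK1 stretch holds 3 cores between 217 and 173 bases before the start, and the GAPDH stretch holds a single CACGTG, which reads as a core on both strands. The stretches of GAPDH and HK2 lie before a start inside the gene's outer bounds. SLC2A1, PKM, PGAM1, EGLN3, LDHB and P4HA2 had no core in their windows. A match is a description of the letters, and binding was not measured here.

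Levels are given as CPM, the reads of a gene per 1e6 reads of its library, after scaling by the trimmed mean of M values (TMM), and genes were compared with each other only as FPKM, which is CPM per kilobase of exon. ENO1 was the most abundant enolase by far, at 330.9 to 399 FPKM over the 9 libraries, while ENO2, the neuronal form, stayed between 8.459 and 10.84 FPKM. Of the phosphofructokinases, which commit glucose to glycolysis, PFKP (44.92 to 52.77 FPKM) lay above PFKL (13.76 to 17.9 FPKM), and PFKL lay above PFKM (9.483 to 11.7 FPKM). The hexokinases HK1 (24.88 to 30.62 FPKM) and HK2 (23.87 to 27.38 FPKM) had ranges that overlapped. Within each of the 9 libraries HK1 was above HK2, at 1.01 to 1.25 times its FPKM. The lactate exporter SLC16A3 (16.99 to 24.19 FPKM) lay above SLC16A1 (12.68 to 14.68 FPKM). PFKFB3 (11.52 to 14.54 FPKM) lay above PFKFB4 (7.164 to 9.456 FPKM), both of which make the activator of phosphofructokinase. P4HA1 (39.78 to 49.7 FPKM) lay above P4HA2 (8.755 to 10.28 FPKM), the catalytic subunits of collagen prolyl hydroxylase. The mitophagy receptors BNIP3 (19.44 to 24.51 FPKM) and BNIP3L (22.88 to 29.15 FPKM) also overlapped in range. BNIP3L was at 1.01 to 1.4 times the FPKM of BNIP3 within each of the 9 libraries. This order rests on the exonic lengths used (4307 and 5325 bases), because BNIP3 had more reads in all, 24343 against 22818.

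**Figure D1:**
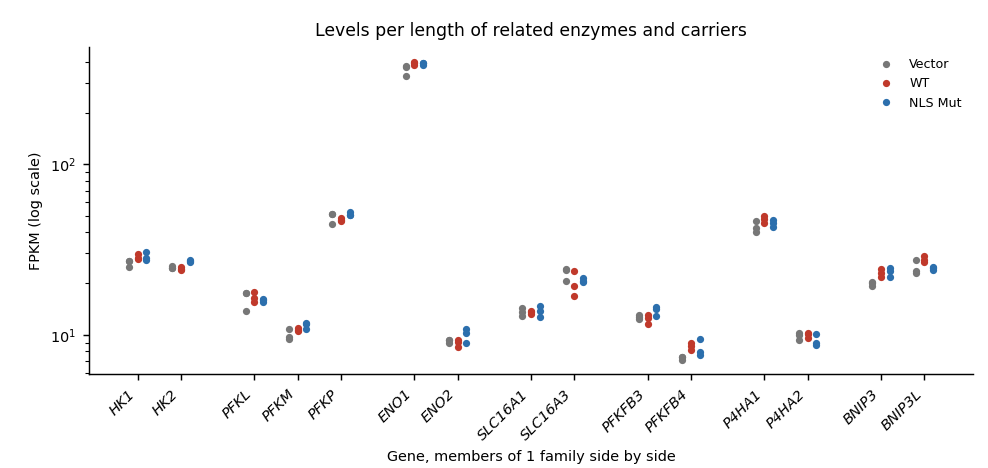
Level of related genes in each library as FPKM (log axis); each point is a library, coloured by group, and families stand side by side. ENO1 at 330.9 to 399 FPKM stands far above ENO2, and the 3 PFK genes form 3 separate steps, while the ranges of HK1 and HK2 overlap.

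Some of these counts may not measure their gene in full, because reads on exons shared with another gene can go unassigned. ALDOA, an aldolase that such cells express strongly, had 497 reads in all, and 42.3% of its exonic bases are shared with AC093512.2 on the same strand in GENCODE 29. LDHB had 329 reads, with 33.4% shared with AC010197.2. Whether the sharing accounts for these low counts was not tested, and neither count was taken as the level of its gene. Antisense overlap touched GAPDH, CA9, ALDOC and ANKRD37 most. Adding the counts of the 2 strands gave 2.138, 2.045, 1.876 and 4.893 times their unstranded count. For SLC16A3, LOX, P4HA2, PDK1, VEGFA and P4HA1 it gave 1.202, 1.182, 1.162, 1.148, 1.118 and 1.111 times. In the other genes of the set it gave at most 1.051 times. Such a sum counts a shared read for both genes. ANKRD37 had 233 reads. The annotation release behind the files is not given in the sources used here.

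The libraries held 17671055 to 27476298 reads on genes. HSPA5 was at 358.5, 383.4 and 391.2 CPM in the Vector libraries, at 5031, 5814 and 6145 with WT and at 4962, 5156 and 4765 with NLS Mut, so both forms stood well above Vector. The epithelial markers EPCAM, CDH1, KRT7, KRT8, KRT18 and KRT19 were at 184.5 CPM or more in every library, NKX2-1, the lung lineage factor, was at 21.45 to 31.65 CPM, and the surfactant gene SFTPB was at most 1.062 CPM. CDH1 was called lower with NLS Mut than with Vector (-0.25 on the log2 scale, adjusted p = 0.044, edgeR), and in 3 of 9 fits that left out a library. CD3E and DCN, which mark other cells, were at 0 reads, PTPRC was at most 0.2745 CPM, and PECAM1, VWF, ACTA2 and PDGFRB were at most 11.71 CPM. CD68 was also counted at 0, but 85.8% of its exonic bases are shared with other genes and the 2 strands together held 201 reads, so its level is not known. The labels do not say whether the libraries came from separate cultures, so p-values measure the spread between these libraries, and fewer cells of a kind cannot be told apart from less RNA per cell.

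With WT, GAPDH and PGK1 rose against Vector, and no gene of the set was called lower. These 2 of 37 genes were called higher by edgeR's quasi-likelihood test at an adjusted p under 0.05 over all tested genes, where 0.214% of all genes were called higher and 0.343% lower. GAPDH oxidises glyceraldehyde 3-phosphate, and PGK1 makes the ATP of the following step. The 9 GAPDH values were 1172, 1170 and 1152 CPM with Vector, 1388, 1312 and 1351 with WT, and 1213, 1275 and 1252 with NLS Mut. The 3 groups did not overlap in any pair, with WT highest and Vector lowest. Against Vector, the means were 1165 ± 10.95 and 1350 ± 38.38 CPM (SD, n = 3), a rise of 15.9% (log2 fold change 0.21 ± 0.04 as standard error, adjusted p = 0.016, edgeR). With the counts of both strands summed, which counts each shared read for both genes, the change was 0.17 (adjusted p = 0.033, edgeR). PGK1 was at 763.7, 830.9 and 793.7 CPM with Vector, at 910.8, 947.4 and 912.6 with WT, and at 848.7, 944.5 and 919.5 with NLS Mut. Every library of either GRP78 form lay above every Vector library, while the 2 forms overlapped. Its means were 796.1 ± 33.66 and 923.6 ± 20.63 CPM (SD, n = 3) for Vector and WT, a rise of 16% (log2 fold change 0.21 ± 0.05 as standard error, adjusted p = 0.039, edgeR). Both calls changed with the libraries in the fit. With only the 2 groups compared both were lost (adjusted p = 0.1 for GAPDH and 0.14 for PGK1, edgeR), and PGK1 was also lost with library size as the only scaling (adjusted p = 0.061). GAPDH was not called without Vector replicate 2 or 3 or WT replicate 1 or 3, with adjusted p up to 0.13, and PGK1 was called in 1 of the 9 fits that leave out a library, with adjusted p up to 0.18 (edgeR).

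**Figure D2:**
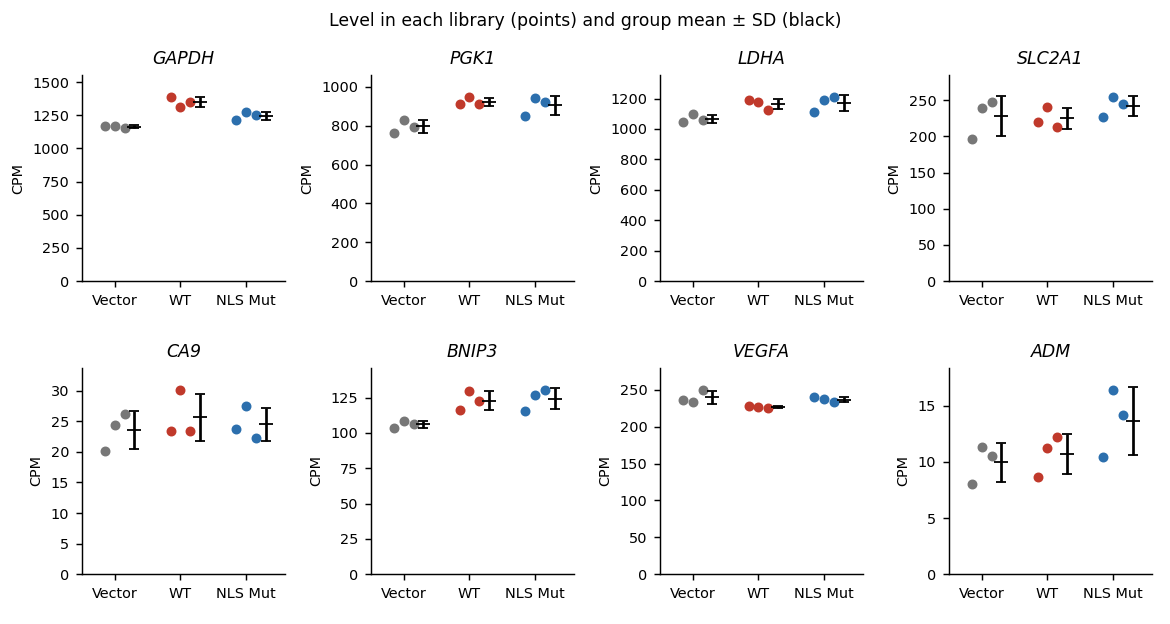
CPM of 8 genes in each library, with points for the 3 libraries of a group and the mean ± SD in black, on axes that start at 0. The WT libraries of GAPDH (1312 to 1388 CPM) lie above both other groups, and those of SLC2A1, CA9 and ADM overlap with Vector.

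Most of the set leaned the same way with WT, by little. The log2 fold change against Vector was above 0 for 26 of 37 genes, with a median of 0.11 and a range of -0.75 to 0.31. Over all tested genes 49.5% were above 0, and the median was -0.00. An unadjusted p under 0.05 was reached by 16 genes of the set that were higher and 1 that was lower, which is 43.2% and 2.7%, against 5.19% and 6.52% of all tested genes. The WT and Vector libraries did not overlap for 13 genes that were higher and 1 that was lower, where the share of all genes was 6.53% and 6.54%. Of the 37 genes, 33 had a 95% interval within 0.5 of 0 on the log2 scale, and the interval reached 0.14 to either side in the median, against 0.29 over all genes. A narrower interval lets a smaller change reach an unadjusted p under 0.05. The shares of the set and of all genes are therefore not like for like, here and in the 2 comparisons below.

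**Figure D3:**
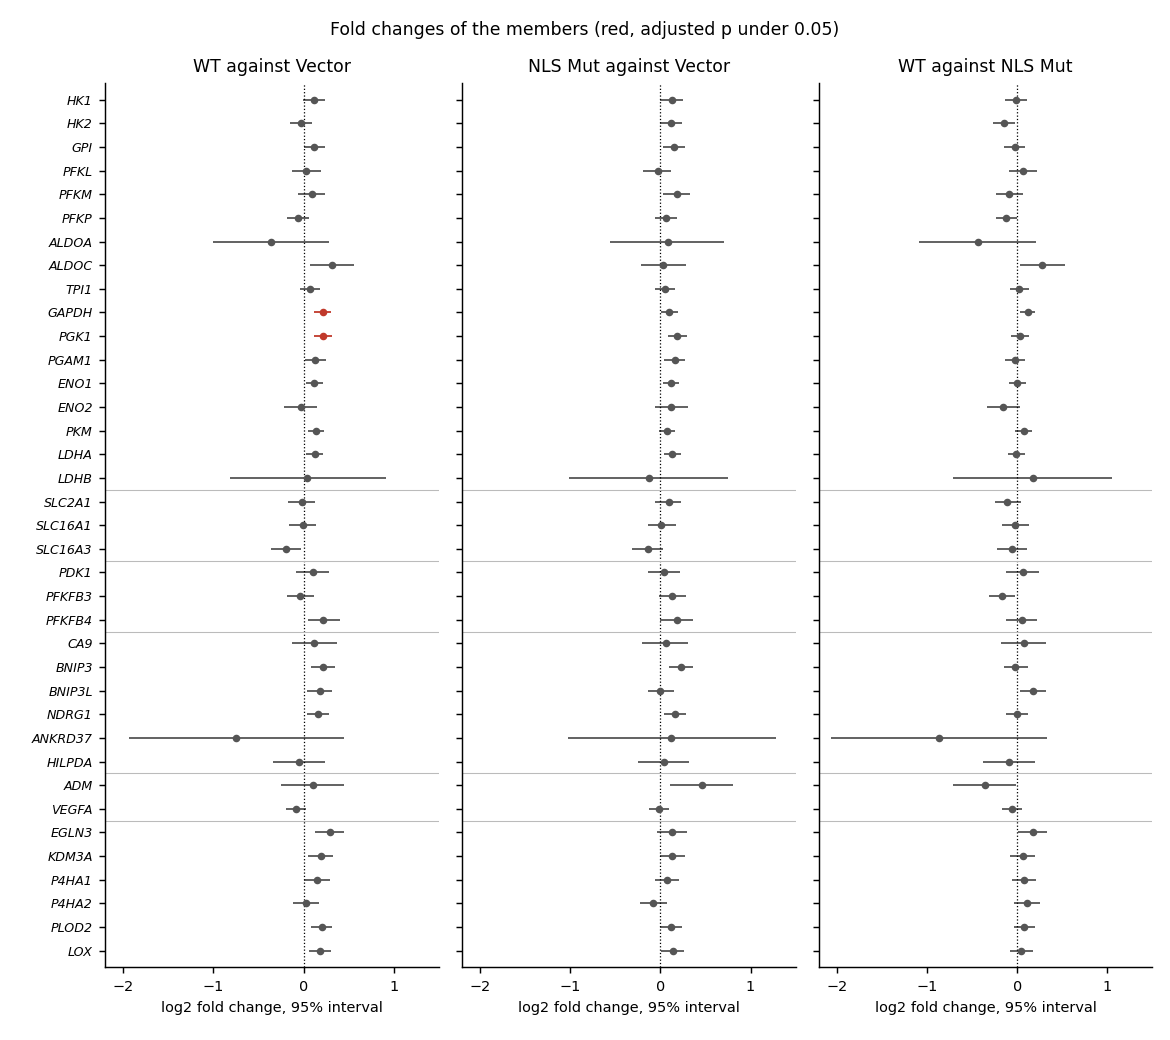
Log2 fold change of each gene with its 95% interval in the 3 comparisons, genes grouped by role and called genes in red. Only GAPDH and PGK1 in WT against Vector are red, and the wide intervals belong to ALDOA, LDHB and ANKRD37, which have few reads.

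Among the 17 glycolytic enzymes and lactate dehydrogenases, 13 had a log2 fold change above 0 with WT, with a median of 0.11, and GAPDH and PGK1 were called. The other abundant enzymes between triose phosphate and lactate lay close together and were not called. LDHA, the muscle-type lactate dehydrogenase, was at 1046, 1097 and 1059 CPM with Vector, 1191, 1175 and 1126 with WT, and 1110, 1190 and 1210 with NLS Mut. The GRP78 libraries all lay above Vector, and its log2 fold change with WT was 0.13 (95% interval 0.03 to 0.22, adjusted p = 0.25, edgeR). PKM, pyruvate kinase, was at 1946 to 2172 CPM with Vector and 2184 to 2329 with WT (0.14, adjusted p = 0.17, edgeR). ENO1, enolase, was at 1746 to 1983 and 2008 to 2105 CPM in the same groups (0.12, adjusted p = 0.26, edgeR). PGAM1, phosphoglycerate mutase, had a log2 fold change of 0.13 and TPI1, triose phosphate isomerase, one of 0.07. Of the upper steps, HK1 was at 0.11, HK2 at -0.03, GPI at 0.12, PFKL at 0.03, PFKM at 0.09 and PFKP at -0.06. ALDOC, a minor aldolase with antisense overlap, was at 17, 20.66 and 20.29 CPM with Vector, 25.9, 26.11 and 20.01 with WT, and 19.67, 18.9 and 20.82 with NLS Mut. WT replicate 3 lay within the Vector range, and the log2 fold change of 0.31 had an adjusted p of 0.28 (edgeR). ALDOA was at 1.35 to 3.12 CPM in the 9 libraries, with a log2 fold change of -0.36 in WT against Vector (95% interval -1.01 to 0.28, adjusted p = 0.72, edgeR), and LDHB, at 0.6781 to 2.735 CPM, was at 0.04 (-0.82 to 0.91).

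None of the 3 transporters was called. SLC2A1 (GLUT1), the main glucose carrier and a common marker of the hypoxia response, was at 196, 239.1 and 247.9 CPM with Vector, 220.2, 240.1 and 213.5 with WT, and 226.3, 254.3 and 244.5 with NLS Mut. All 3 groups overlapped, and WT differed from Vector by -0.02 (95% interval -0.17 to 0.13, adjusted p = 0.95, edgeR). SLC16A1 was at -0.01 and SLC16A3 at -0.20 (adjusted p = 0.32, edgeR), the only gene of the set with an unadjusted p under 0.05 in the lower direction. Of the kinases, PFKFB4 was at 0.22, PDK1, a pyruvate dehydrogenase kinase, at 0.10 and PFKFB3 at -0.04, and none was called.

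Classical HIF targets lay on both sides of the Vector level. CA9, the membrane carbonic anhydrase that keeps intracellular pH up and is widely used as a hypoxia marker, was at 20.14, 24.46 and 26.21 CPM with Vector, 23.46, 30.16 and 23.48 with WT, and 23.76, 27.45 and 22.29 with NLS Mut. The groups overlapped, and the log2 fold change with WT was 0.12 (95% interval -0.13 to 0.37, adjusted p = 0.76, edgeR). VEGFA, the angiogenic growth factor, was at 236.8, 233.8 and 250.1 CPM with Vector, 228.5, 227.2 and 225.5 with WT, and 240.1, 237.5 and 233.4 with NLS Mut. WT lay just below both other groups, by 5.49% against Vector (log2 fold change -0.08, adjusted p = 0.61, edgeR). BNIP3 was at 103.5, 108.3 and 106.6 CPM with Vector, 116.6, 130 and 122.3 with WT, and 115.8, 126.7 and 130.5 with NLS Mut. All 6 GRP78 libraries of BNIP3 lay above Vector, by 0.21 with WT (adjusted p = 0.16, edgeR) and 0.23 with NLS Mut (adjusted p = 0.11, edgeR). BNIP3L was at 0.18 with WT, NDRG1, a stress-induced protein, at 0.16, and HILPDA, which blocks breakdown of lipid droplets, at -0.05. ANKRD37 was below 2 CPM in every library, and its log2 fold change of -0.75 had a 95% interval of -1.94 to 0.45 (adjusted p = 0.68, edgeR).

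The oxygen-dependent hydroxylases and collagen-modifying enzymes were all above 0 with WT, with a median of 0.19 over 6 genes. The main edgeR fit called none of them. EGLN3, the prolyl hydroxylase that HIF itself induces, was at 63.75, 67.12 and 55.82 CPM with Vector, 77.85, 78.07 and 72.74 with WT, and 64.1, 67.22 and 72.33 with NLS Mut. WT lay above both other groups (log2 fold change against Vector 0.29, 95% interval 0.13 to 0.45, adjusted p = 0.083, edgeR). DESeq2 called EGLN3 higher beside GAPDH and PGK1, where it called 0.552% of all genes higher and 0.633% lower. PLOD2, the lysyl hydroxylase of collagen, was at 0.20 (adjusted p = 0.12, edgeR), KDM3A, a histone demethylase, at 0.19, LOX, which cross-links collagen, at 0.18, P4HA1 at 0.15 and P4HA2 at 0.03.

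With NLS Mut, no gene of the set was called against Vector, higher or lower, where 0.295% of all tested genes were called higher and 0.499% lower. DESeq2 called PGK1 and BNIP3 higher in this comparison, where it called 0.767% of all genes higher and 0.895% lower. At an unadjusted p under 0.05, 14 genes of the set were higher and 0 lower (37.8% and 0%), against 6.13% and 6.03% of all genes. The libraries did not overlap for 12 genes that were higher and 0 that were lower, where the share of all genes was 9.28% and 8.82%. The log2 fold change was above 0 for 32 of 37 genes, with a median of 0.12 and a range of -0.14 to 0.46, while 49.7% of all genes were above 0. The gene farthest from 0 was ADM, the vasodilator peptide adrenomedullin, at 8.038, 11.32 and 10.55 CPM with Vector, 8.68, 11.25 and 12.2 with WT, and 10.44, 16.43 and 14.18 with NLS Mut. An NLS Mut library lay within the Vector range, and the difference was 0.46 (standard error 0.17, adjusted p = 0.23, edgeR). PGK1 was at 0.18 (adjusted p = 0.079, edgeR), LDHA at 0.13 (adjusted p = 0.2, edgeR), PGAM1 at 0.16 and GAPDH at 0.10 (adjusted p = 0.35, edgeR). Of the 17 enzymes 15 were above 0, with a median of 0.12, and of the 6 hydroxylases and collagen-modifying enzymes 5 were, also with a median of 0.12. SLC2A1 was at 0.09, CA9 at 0.06 and VEGFA at -0.02. This comparison shares its Vector libraries with the one above, so a low or high Vector library moves both.

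Between the 2 forms no gene of the set was called, where 0.30% of all genes were higher and 0.204% lower in WT than in NLS Mut. Unadjusted p-values under 0.05 were found for 4 genes that were higher and 4 that were lower (10.8% each), against 5.55% and 6.0% of all genes, and DESeq2 called none of the set, with 0.847% of all genes higher and 0.627% lower. The 2 groups did not overlap for 3 higher and 3 lower genes, where all genes gave 8.25% and 9.42%. The log2 fold change was above 0 for 18 of 37 genes, with a median of -0.00. GAPDH was 0.12 higher with WT (95% interval 0.03 to 0.20, adjusted p = 0.27, edgeR), EGLN3 0.17 higher (0.01 to 0.33, adjusted p = 0.41) and BNIP3L 0.18 higher (0.03 to 0.32, adjusted p = 0.3). HK2 was at -0.15 (95% interval -0.27 to -0.03, adjusted p = 0.28, edgeR), PFKFB3 at -0.17 and ADM at -0.36. For PGK1 the difference was 0.03 (95% interval -0.07 to 0.13), for LDHA -0.01 (-0.10 to 0.09) and for SLC2A1 -0.11 (-0.25 to 0.04). In 32 of 37 genes the interval lay within 0.5 of 0.

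By library, the median of the 37 genes against the Vector mean was -0.04, 0.03 and 0.01 in the Vector libraries, 0.08, 0.13 and 0.07 with WT, and 0.06, 0.14 and 0.11 with NLS Mut on the log2 scale. Vector replicate 1 had 12 of 37 genes above the Vector mean, against 25 and 21 in replicates 2 and 3, and each GRP78 library had 24 to 31. Of all tested genes, 50.2% to 51.6% lay above that mean in each library. Lowest of the 9 libraries in Vector replicate 1 were the enzymes HK1, GPI, PFKL, PFKP, ALDOC, TPI1, PGK1, ENO1, PKM and LDHA. So were SLC2A1, CA9, BNIP3, NDRG1, HILPDA and ADM. Other genes went the other way. GAPDH, LDHB, SLC16A1, PDK1, BNIP3L, KDM3A, P4HA1, P4HA2, PLOD2 and LOX were higher in Vector replicate 1 than in replicates 2 and 3. The share of all genes that were lowest in Vector replicate 1 was not counted.

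**Figure D4:**
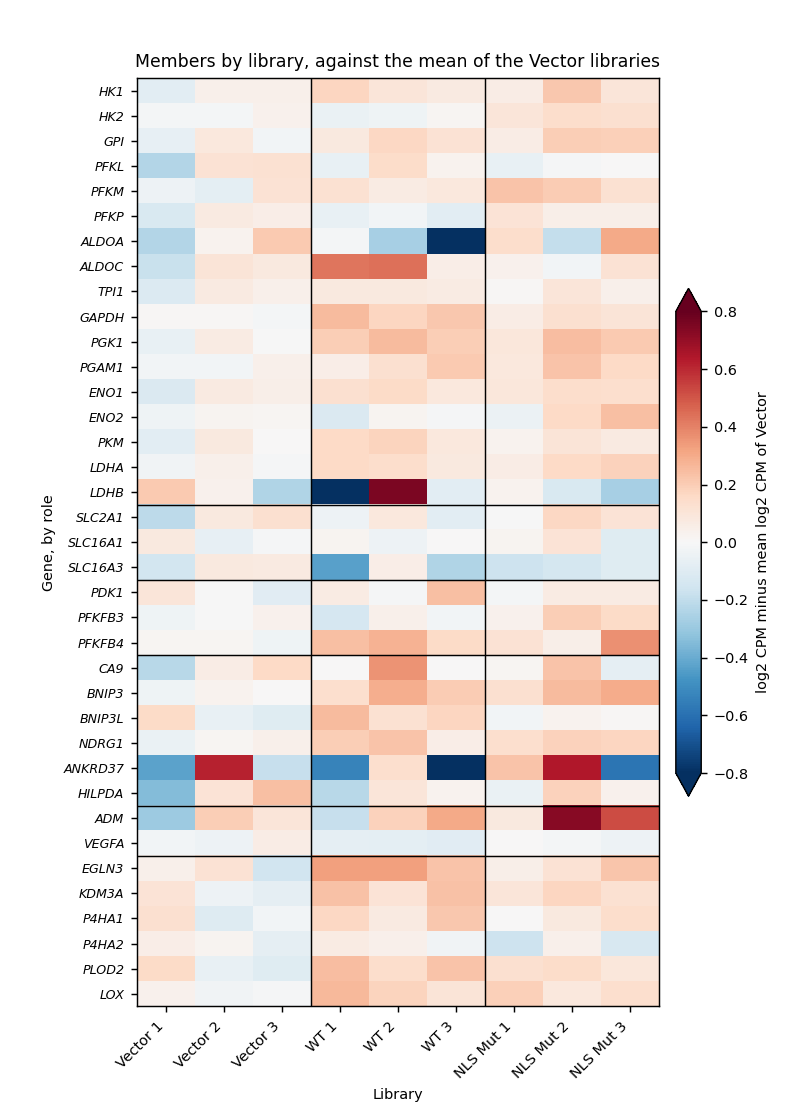
Each gene (rows, by role) in each library (columns) as log2 CPM minus the mean of the 3 Vector libraries; red is above and blue below. Warm colours fill most enzyme and hydroxylase rows of the GRP78 columns, Vector 1 is bluer in the enzyme rows, and the darkest cells belong to ALDOA, LDHB, ANKRD37 and ADM.

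The libraries also differed in how their counts followed GC content, which touches this set. The slope of log2 CPM per 10 percentage points of GC was -0.04, 0.10 and 0.11 in Vector replicates 1 to 3, and -0.08 to 0.03 in the 6 others. Over all genes the median log2 fold change of WT against Vector went from 0.07 in the lowest of 10 equal bins of GC content (median 37%) to -0.15 in the highest bin (63.9%). The 37 genes had a median GC of 52.7%, against 48.6% of all tested genes, and in the bin with a median GC of 53% the median change was -0.03 with WT and -0.02 with NLS Mut. With GC content and exonic length fitted in each library, 8 genes of the set were called higher with WT, namely TPI1, GAPDH, PGK1, PGAM1, ENO1, PKM, BNIP3 and EGLN3, where 0.751% of all genes were. GAPDH was then at 0.33 and PGK1 at 0.18 on the log2 scale (adjusted p = 9.2e-05 and 0.047, edgeR). With NLS Mut, 7 were called higher, namely GPI, GAPDH, PGAM1, ENO1, BNIP3, NDRG1 and ADM, where 1.23% of all genes were. Between the forms BNIP3L was called higher with WT, where 1.08% of all genes were. Their medians were 0.14, 0.15 and -0.02 in the 3 comparisons. Without Vector replicate 1, a different group was called higher with WT, namely GAPDH, PGK1, BNIP3L, EGLN3, KDM3A, P4HA1, PLOD2 and LOX, where 2.65% of all genes were, and SLC16A3 was called lower, where 3.68% of all genes were. With NLS Mut PGK1 and PLOD2 were then called, where 2.38% of all genes were. Of the genes called higher with WT in that fit, BNIP3L, KDM3A, P4HA1, PLOD2 and LOX have a GC content of 38.9%, 42.5%, 40.8%, 34.4% and 39.6%. The others, PGK1, EGLN3 and GAPDH, have one of 43.3%, 49.4% and 58.8%, and SLC16A3, called lower, one of 62.7%. The part of GC content in these results was not tested beyond this fit.

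**Figure D5:**
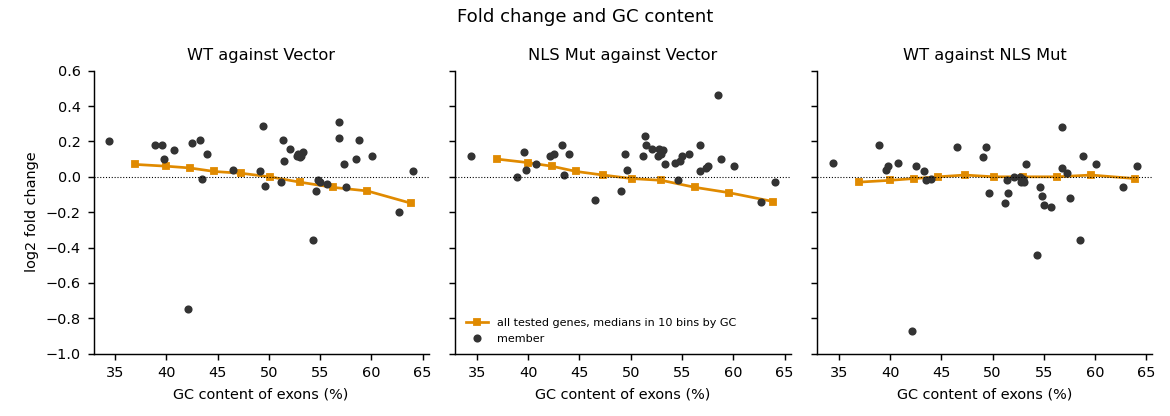
Log2 fold change of the 37 genes (dark points) against the GC content of their exons, with the median of all tested genes in 10 bins of GC (orange squares). The orange line falls from 0.07 to -0.15 in WT against Vector while most points between 50% and 60% GC lie above it, and it is flat between the 2 forms.

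The factors that govern these genes were measured as transcripts only. HIF1A was at 598, 476.8 and 480.3 CPM with Vector, 647.7, 559.2 and 627.6 with WT, and 585.4, 596.3 and 580.2 with NLS Mut. Vector replicate 1 lay within the GRP78 range, and HIF1A, with a GC content of 36.4%, was at 0.24 with WT (adjusted p = 0.11, edgeR) and at 0.18 with NLS Mut (adjusted p = 0.23, edgeR). EPAS1 was at 323, 347.2 and 344.3 CPM with Vector, 318.9, 316.2 and 311.2 with WT, and 352.6, 339.6 and 344.3 with NLS Mut, so WT was lowest by a small margin (-0.10, adjusted p = 0.47, edgeR). ARNT was at 0.01 and VHL, whose strand-summed count is 1.782 times the unstranded one, at -0.11 with WT, and neither was called. Of the 13 components of the HIF pathway, 12 were tested, and the sole call was HIF1A-AS3, an RNA transcribed antisense at the HIF1A locus (chr14:61715558-61751097). It was at 12.57, 17.29 and 18.4 CPM with Vector, 13.34, 7.703 and 12.05 with WT, and 18.94, 21.61 and 14.98 with NLS Mut. All WT libraries lay below those of NLS Mut, by -0.76 on the log2 scale (adjusted p = 0.039, edgeR, standard error 0.17). The call was lost without WT replicate 2 or 3 or NLS Mut replicate 1 or 2, with adjusted p up to 0.28. The medians of this list were -0.02, 0.01 and -0.00 in the 3 comparisons. Counting ignored strand, so its reads cannot be told apart from reads of HIF1A at the same bases.

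Further targets of HIF, 25 genes and all tested, gave 1 call in each comparison. STC2, a secreted glycoprotein, was at 200.6, 238.5 and 239.1 CPM with Vector, 188.7, 180.5 and 171 with WT, and 239.4, 213.3 and 208.8 with NLS Mut. WT was lowest without overlap, at -0.33 against Vector (adjusted p = 0.019) and -0.29 against NLS Mut (adjusted p = 0.047), each with a standard error of 0.07 (edgeR). The call against Vector was lost without Vector replicate 2 or 3 or WT replicate 1 or 3, with adjusted p up to 0.19, and the call between the forms held in 2 of 9 such fits. TFRC, the transferrin receptor, was at 390, 390.2 and 388.6 CPM with Vector, 373.6, 404.5 and 423.1 with WT, and 451.2, 478.6 and 445.6 with NLS Mut, and NLS Mut rose above Vector by 0.24 (adjusted p = 0.029, edgeR, standard error 0.05). This call held in 4 of 9 fits that left out a library, with adjusted p up to 0.29. The medians of this list were 0.04, 0.09 and -0.00.

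Among 29 tested of 32 further enzymes of glucose use, 2 were called, both in WT against Vector. HKDC1, a putative hexokinase, fell. It was at 149.6, 167.2 and 165.5 CPM with Vector, 119.4, 125.7 and 128.8 with WT, and 157.4, 145.7 and 146.4 with NLS Mut, with the WT libraries below all others (-0.37, adjusted p = 0.0034, edgeR, standard error 0.06). The call was lost without Vector replicate 2 or WT replicate 1, with adjusted p up to 0.058. PDK3, a pyruvate dehydrogenase kinase like PDK1, rose. It was at 39.04, 30.72 and 31.65 CPM with Vector, 50.18, 44.83 and 42.9 with WT, and 36.72, 42.55 and 41.98 with NLS Mut, and WT lay above both other groups (0.45, adjusted p = 0.032, edgeR, standard error 0.10). This call held in 3 of 9 fits that left out a library, with adjusted p up to 0.27. The medians of this list were -0.00, -0.01 and 0.00. TXNIP, which the glucose-sensing factor MondoA drives and which brakes glucose uptake, was at 1380 to 1644 CPM in all 9 libraries and was not called (0.03 with WT, adjusted p = 0.87, edgeR), nor were the 4 other genes of the MondoA and ChREBP list.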

How the data were processed

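RNA-Seq was done on 9 libraries of H1975 cells. What the authors deposited are raw counts of reads on each gene, not normalized, in the layout of STAR. The submitters' processing notes name STAR 2.7.9a, DESeq2 1.36.0 and GRCh38.p14. Replicates were not pooled. The unstranded counts were used, because 50.59% to 51.92% of stranded reads lay on the forward strand. Lines that name no gene held 27.62% to 30.71% of reads and were left out. TMM factors were 0.989 to 1.02. After filterByExpr, edgeR 4.0.16 (R 4.3.3) fitted a quasi-likelihood model to all 9 libraries, with Benjamini-Hochberg adjustment over all tested genes and a threshold of 0.05. The median biological coefficient of variation was 11.1%. Scripts were tested on simulated data. Exonic lengths, GC content and overlaps came from GENCODE 29, promoters and coordinates from RefSeq GRCh38.p14. Named genes are those called, the 3 largest changes per comparison, and GAPDH, SLC2A1, LDHA, CA9 and VEGFA, with HIF1A, EPAS1, ARNT, VHL, TXNIP, HSPA5 and HIF1A-AS3. Other genes with values were named after their values were seen, to describe their role group. The genes and lists were chosen with earlier results of these data known. Alternatives were DESeq2 1.42.0, other scaling and filters, a replicate block, a GC and length offset (loess, span 0.3), only the 2 groups compared, leaving out each library, and, after the data were seen, the sum of both strands. Figures used Python 3.11.15 and matplotlib 3.10.9.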

Additional observations from a re-analysis of the deposited data

Results flagged for a closer look

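A difference between the effects of WT and NLS Mut, tested directly between the 2 forms with edgeR, was found for 94 of 18653 genes, none of them in the set of 37. Among these, 4 belong to the further lists and cell markers examined here. HIF1A-AS3 was lower with WT, by a log2 fold change of -0.76 (adjusted p = 0.039), and in fits that left out a library it lay between -0.92 and -0.54, with adjusted p from 0.0042 to 0.28. STC2 was lower with WT, at -0.29 (adjusted p = 0.047), between -0.32 and -0.22 in such fits, with adjusted p from 0.0013 to 0.33. The epithelial markers CDH1, at 0.27 (adjusted p = 0.036), and KRT19, at 0.23 (adjusted p = 0.044), were higher with WT, and each held in 4 of 9 fits that left out a library.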

How the results depend on the processing

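In the 8 alternatives that kept all libraries and the fit of only the 2 groups compared, the median log2 fold change of the 37 genes was 0.08 to 0.14 for WT against Vector, 0.10 to 0.15 for NLS Mut against Vector and -0.02 to 0.01 between the forms. For WT against Vector, genes of the set called higher were 1 with library size alone (26 genes higher and 115 lower over all genes, against 40 and 64), 0 with only the 2 groups compared (26 genes in all) and 8 with the GC and length offset (203 in all, 140 higher). All genes called were 221 with DESeq2 and 289 with no filter, and both added EGLN3 to GAPDH and PGK1. For NLS Mut against Vector the set gave 2 higher with DESeq2 (310 in all) and 7 with the offset (309 in all, 229 higher), no filter gave 240 in all, and library size alone gave 39 higher and 133 lower, against 55 and 93. Between the forms the set gave 1 with the offset (431 in all), and all genes called were 275 with DESeq2, 225 with no filter and 315 with only the 2 groups compared. The cause of these moves was not tested. SLC2A1 in WT against Vector and VEGFA in NLS Mut against Vector were each at 0.04 with the offset, and LDHA between the forms was at 0.00 with both strands summed, all with changed sign and uncalled.

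Same-numbered libraries hardly deviated together (correlation of deviations -0.02 to 0.06), which does not exclude a pairing by number. With the replicate block, the set gave 4 higher genes (GAPDH, PGK1, EGLN3 and PLOD2) for WT against Vector (232 genes in all) and 1 for NLS Mut against Vector (230 in all), and 212 genes in all between the forms.

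Leaving out a library gave 0 to 8 higher and 0 to 1 lower genes of the set for WT against Vector, with a median of 0.07 to 0.13 and 19 to 1256 genes in all. For NLS Mut against Vector it gave 0 to 2 higher genes, a median of 0.07 to 0.12 and 33 to 1002 genes in all, and between the forms 27 to 388 genes in all. The highest counts came without Vector replicate 1. Where an uncalled gene changed sign, its range in WT against Vector was -0.12 to 0.04 for SLC2A1, -0.01 to 0.20 for CA9 and -0.03 to 0.23 for ADM. In NLS Mut against Vector the ranges were -0.02 to 0.14 for SLC2A1, -0.05 to 0.13 for CA9, -0.04 to 0.00 for VEGFA, -0.22 to 0.53 for ANKRD37, -0.04 to 0.21 for ALDOA and -0.06 to 0.08 for ALDOC. Between the forms they were -0.04 to 0.02 for LDHA, -0.06 to 0.16 for CA9, -0.00 to 0.07 for PGK1 and -0.06 to 0.03 for BNIP3. Few assigned reads limit ANKRD37, ALDOA and LDHB, with 233, 497 and 329 reads.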
